A study of Mus musculus with 11 samples.

Results

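A group of 71 of the 26512 probes on a mouse liver array was high in every liver given Sorafenib for 83 d and lower in every other liver of the study. The 71 members were chosen on their measured levels. In each, all 4 long-term arrays lay above all 7 other arrays, and the long-term mean exceeded both the mean after 14 d of Sorafenib and the vehicle mean by 0.7 or more on the log2 scale. Of the 370 probes in which every long-term array lay above all others, 1.4% of all probes, 76 met the size limit, and 5 of these are left out by the rule. The differences between the long-term livers and both other groups are therefore a description of how the members were found. Calls in these contrasts are given below only as counts that follow from the choice, and nothing is read from them.

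Sorafenib is an oral multikinase inhibitor that blocks RAF kinases in the MAP kinase cascade and the receptors for VEGF and PDGF, by which tumour vessels and their supporting cells are maintained. It is a systemic drug for hepatocellular carcinoma, and tumours that respond at first often grow again under treatment, so that short and long exposure are commonly set side by side. The iAST line, on a C57BL6n background, is an inducible model of hepatocellular carcinoma in which a viral large T antigen is placed under the albumin promoter, so that it is hepatocytes that are transformed. These points are background and are not taken from the arrays.

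The samples were total RNA of whole liver lysates, labelled tumour liver and hybridised to 1-colour arrays. The groups were Sorafenib at 60 mg/kg by mouth for 83 d, called long-term here (4 arrays), Sorafenib at the same dose for 14 d (4 arrays), and vehicle for 14 d (3 arrays). All animals carried the iAST construct and all were labelled as 12 to 15 weeks of age, the long-term animals included. Vehicle livers of 83 d were not analysed here, and the length of treatment and the time that passed cannot be told apart. Whether every array holds its own animal is not stated, so each p-value rests on a spread between arrays that may be technical in part. All long-term and all vehicle arrays and 14 d replicate 4 shared a chip, whereas 14 d replicates 1 to 3 were on a second chip.

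Members are given as probes. Their gene names were not used here, so the genes, the markers of hepatocytes and other liver cells, and the sequences behind the probes were not analysed. Identifiers are printed only for probes that a statement is about. Levels are log2(intensity + 16) after quantile normalization over the 11 arrays. In whole liver, more cells of a type and more RNA per cell cannot be told apart. Median intensities of the arrays ran from 98.7 to 99.9, and the number of arrays limits the precision.

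The members were on average 2-fold or more higher in the long-term livers. The mean over the 71 members was 10.31, 10.15, 10.07 and 10.11 in the 4 long-term livers, 9.14, 8.97, 9.01 and 8.80 in the 4 livers of 14 d, and 8.74, 8.92 and 8.66 in the 3 vehicle livers. The group means were 10.16 ± 0.11 (SD, n = 4) for long-term, 8.98 ± 0.14 (SD, n = 4) for 14 d and 8.77 ± 0.13 (SD, n = 3) for vehicle. The livers of 14 d thus lay close to vehicle, and their range overlapped that of the vehicle livers.

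Member by member, the long-term mean exceeded vehicle by 0.70 to 3.94 on the log2 scale, with a median of 1.25, and exceeded 14 d by 0.70 to 3.30, with a median of 1.10. Over all probes the medians of these differences were 0.00 and 0.00. At least a 2-fold rise in both differences was reached by 37 members and not by the other 34. Larger steps were fewer: 10 members were at least 4-fold over vehicle and 2 at least 4-fold over 14 d. The distance from the lowest long-term array to the highest of the other 7 arrays was 0.01 to 1.61, with a median of 0.44, so in some members the groups were only just apart. The 3 members just inside the size limit had a smaller difference of 0.702, 0.702 and 0.706, and the 3 probes just outside it 0.691, 0.684 and 0.683.

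**Figure D1:**
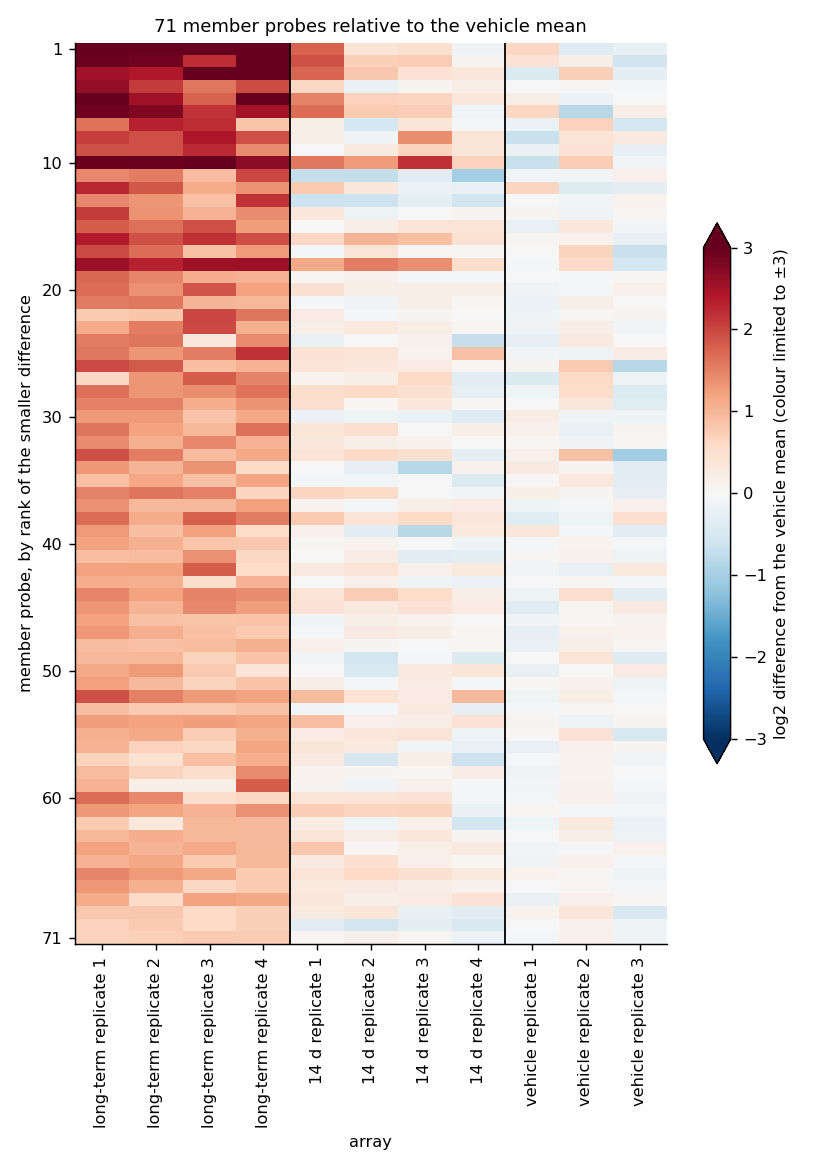
Levels of the 71 members (rows, by rank of the smaller of the differences from 14 d and from vehicle) in each array (columns, long-term, 14 d and vehicle), as the log2 difference from the vehicle mean of the same probe. The 4 long-term columns are mostly red, though some cells are pale, such as ILMN_3065652 in replicates 2 and 3. The 14 d columns are mostly pale, and rows near rank 10 and rank 18 are also red at 14 d.

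The contrasts that chose the members also fix most of their calls, so the next counts are no enrichment over the shares of all probes. By the fit across all probes, 70 members passed the threshold (limma, adjusted p under 0.05) as higher in long-term than in vehicle livers, where 1.58% of all probes did, and 67 as higher in long-term than in 14 d livers, where 0.917% of all probes did. No member passed as lower, where 1.3% of all probes did against vehicle and 0.509% against 14 d. In either direction 2.88% of all probes passed against vehicle and 1.43% against 14 d. With a chip term in the fit, 50 of the members passed as higher in long-term than in 14 d livers, where 83 of all probes did. A single member, ILMN_3065652, passed in neither comparison, and it was singled out for that after its values were seen. It stood at 7.80, 6.96, 6.95 and 8.59 in the long-term livers, at 6.86, 6.68, 6.92 and 6.73 in the livers of 14 d, and at 6.70, 6.89 and 6.73 in the vehicle livers. Long-term replicates 1 and 4 were clearly raised, whereas replicates 2 and 3 lay at the upper edge of the other groups.

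The member with the largest step was ILMN_1214531. Its levels were 12.12, 11.78, 10.86 and 10.93 in the long-term livers, 9.25, 7.87, 7.96 and 7.38 in the livers of 14 d, and 8.10, 7.10 and 7.25 in the vehicle livers. The lowest long-term liver was 1.61 above the highest of the other livers on the log2 scale. Among the livers of 14 d, replicate 1 stood highest, and the other 3 lay within the vehicle range. The long-term mean was 15.3-fold over vehicle and 9.88-fold over 14 d on the intensity + 16 scale. The 14 d mean differed from vehicle by 0.64 ± 0.35 (SE) on the log2 scale, which did not pass the threshold (limma adjusted p = 0.598).

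The next in rank, ILMN_1258500, had a smaller gap between the groups. It stood at 11.38, 11.31, 10.63 and 11.53 in the long-term livers, at 10.33, 9.14, 9.19 and 8.49 in the livers of 14 d, and at 8.85, 8.59 and 7.83 in the vehicle livers. Again 14 d replicate 1 was the highest of the 14 d arrays, and it lay only 0.30 below long-term replicate 3. Here 14 d replicates 2 and 3 also lay above all vehicle livers, and only replicate 4 lay in the vehicle range. The long-term mean was 6.93-fold over vehicle and 3.79-fold over 14 d. Between 14 d and vehicle the difference of 0.87 ± 0.31 (SE) did not pass the threshold (limma adjusted p = 0.271).

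**Figure D2:**
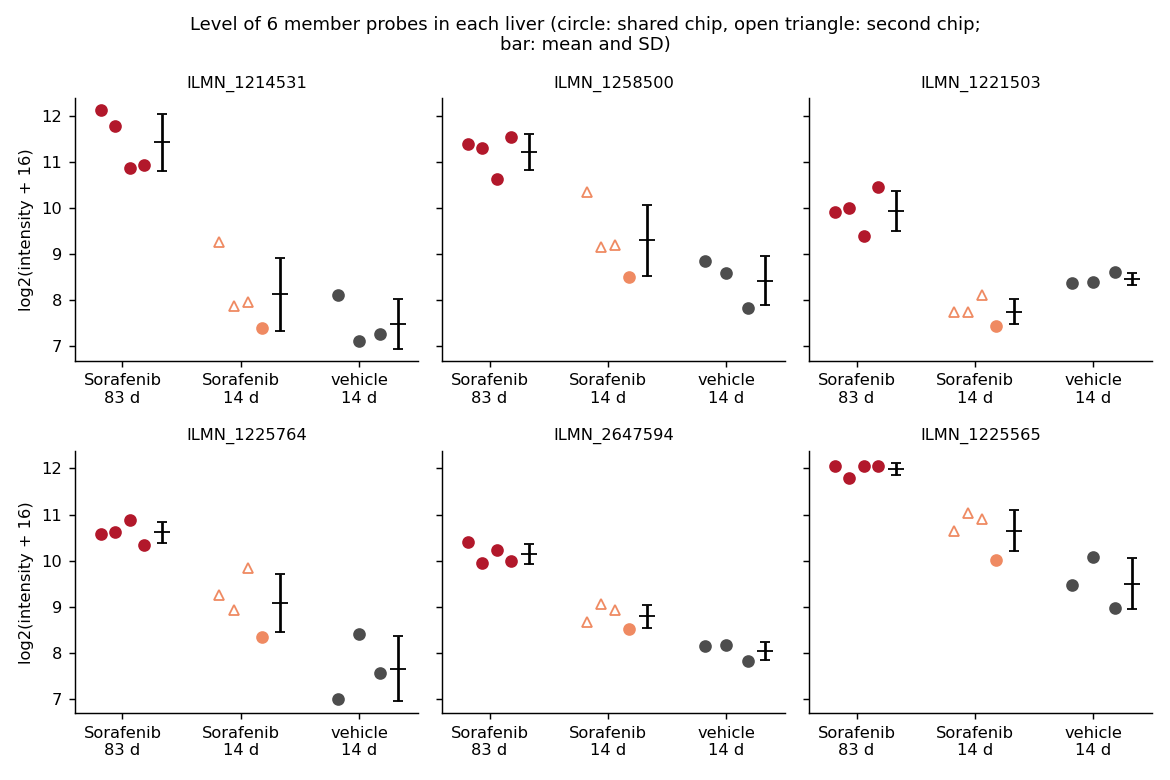
Levels of 6 members, as log2(intensity + 16), in every liver by group, with circles for arrays of the shared chip, open triangles for the second chip and bars for the mean and SD. The top row shows ILMN_1214531, ILMN_1258500 and ILMN_1221503, the last lower at 14 d (7.75) than with vehicle (8.45), and the bottom row the 3 members that passed at 14 d, with 14 d means between those of long-term and vehicle.

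The members differed in how they stood after 14 d, a contrast the rule did not set, although its arrays were used to choose the members. The differences of long-term and of 14 d from vehicle share the 3 vehicle arrays. The choice favours probes that were low in these and also in the 14 d arrays, so it can act on this contrast in either direction. The 14 d mean was above the vehicle mean in 56 members and below it in 15, with a median difference of 0.18, against 52.1% of all probes above it and a median of 0.00 over all probes. The difference was at least 0.25 upward in 29 members, at least 0.25 downward in 4, and within 0.25 in the other 38. Over all probes 3.04% moved at least 0.25 upward and 3.50% at least 0.25 downward. The members varied more than all probes, with a median SD of 0.24 against 0.07 at 14 d and 0.20 against 0.06 with vehicle. A fixed cut is passed more readily by such probes in either direction, so these shares are not like for like. Every 14 d array lay above every vehicle array in 8 members, where 4.42% of all probes did, and below in 4 members, where 4.81% did.

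At 14 d against vehicle 3 members passed the threshold as well, all of them higher. Over all probes 0.279% passed as higher and 0.886% as lower, 1.17% in all. The calls do not settle which members rise under long-term treatment alone. ILMN_1258500 differed by 0.87 at 14 d without passing, more than the 0.75 of ILMN_2647594, which passed. At an unadjusted p under 0.05 the count was 22 members, where 9.76% of all probes were. ILMN_1225764 stood at 10.59, 10.62, 10.89 and 10.34 in long-term livers, at 9.24, 8.92, 9.84 and 8.34 at 14 d, and at 6.99, 8.40 and 7.56 with vehicle. The 14 d livers filled the space between the other groups, and replicate 4 alone reached into the vehicle range. Its 14 d mean was 2.71-fold over vehicle, a log2 difference of 1.44 ± 0.29 (SE) with a limma adjusted p of 0.0113.

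ILMN_1225565 stood at 12.05, 11.80, 12.05 and 12.06 in long-term livers, at 10.64, 11.03, 10.89 and 10.02 at 14 d, and at 9.46, 10.07 and 8.96 with vehicle. Its long-term livers were nearly level, whereas 14 d replicate 4 was just under the highest vehicle liver. The 14 d mean was 2.21-fold over vehicle, a log2 difference of 1.15 ± 0.23 (SE) with a limma adjusted p of 0.0105. ILMN_2647594 stood at 10.41, 9.94, 10.23 and 9.98 in long-term livers, at 8.67, 9.06, 8.93 and 8.51 at 14 d, and at 8.13, 8.17 and 7.82 with vehicle. Here the 3 groups did not overlap. The 14 d mean was 1.68-fold over vehicle, a log2 difference of 0.75 ± 0.16 (SE) with a limma adjusted p of 0.0153.

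The chip moved with these calls. With the chip as a term, which rests the contrast on 14 d replicate 4, the log2 differences at 14 d were 0.69 for ILMN_1225764, 0.52 for ILMN_1225565 and 0.47 for ILMN_2647594. None of the 3 then passed the threshold, and the lowest of their limma adjusted p was 0.853. No member then passed. An unadjusted p under 0.05 was found in 7 members with this term, and in 1554 of the 26512 probes. Within the shared chip, with 1 array of 14 d, the differences were the same and the adjusted p were 0.930, 0.930 and 0.915. Without vehicle replicate 1 none passed either (adjusted p = 0.120, 0.0551 and 0.0515), nor without an intensity trend (0.125, 0.0942 and 0.0576). ILMN_1225565 also missed the threshold without 14 d replicate 2 (0.0503) and without vehicle replicate 3 (0.0637). ILMN_2647594 also missed it without 14 d replicate 2 (0.0723), 14 d replicate 3 (0.0612) and vehicle replicate 3 (0.0980).

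Across the whole group the livers of 14 d on the second chip stood further from vehicle than the one on the shared chip. The mean of 14 d replicates 1 to 3 was above the vehicle mean in 59 members, with a median difference of 0.23, whereas 14 d replicate 4 was above it in 39 members, with a median of 0.05. Over the brighter probes, defined as the 13256 with a mean level over the median probe, these medians were 0.01 and 0.00. The normalization holds such medians near 0, so they do not show whether the chips differ in general. With all 14 d arrays together, 53.1% of the brighter probes were above the vehicle mean. That share was not worked out for replicates 1 to 3 or for replicate 4 alone. In 39 of the members replicate 4 was the lowest of the 14 d arrays, against 27.8% of the brighter probes. Replicate 4 was both on another chip and a different sample, and these cannot be told apart.

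**Figure D3:**
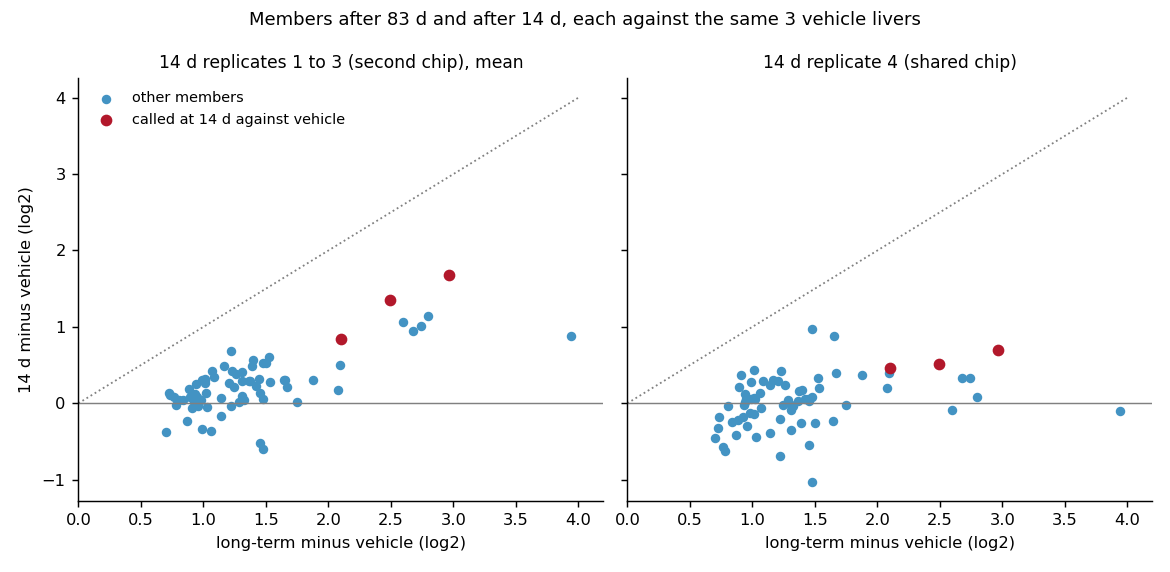
Each point is a member, with its long-term minus vehicle difference on the x axis and its 14 d minus vehicle difference on the y axis, both log2, for 14 d replicates 1 to 3 on the second chip (left) and 14 d replicate 4 on the shared chip (right). The dotted line marks equal differences and the red points the 3 members that passed at 14 d. Points lie mostly above 0 on the left (59 of 71) and on both sides of 0 on the right (39 of 71 above). The shares of all probes above 0 in each panel were not worked out.

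At 14 d 4 members were below vehicle by 0.25 or more. The largest such difference, singled out after the values were seen, was that of ILMN_1221503. It stood at 9.90, 9.99, 9.38 and 10.45 in the long-term livers, at 7.73, 7.73, 8.09 and 7.43 in the livers of 14 d, and at 8.37, 8.38 and 8.61 in the vehicle livers. The 3 groups did not overlap, with 14 d the lowest and long-term the highest. The long-term mean was 2.78-fold over vehicle and 4.55-fold over 14 d. The difference of -0.71 ± 0.19 (SE) between 14 d and vehicle did not pass the threshold (limma adjusted p = 0.0812), though it did without long-term replicate 3 (0.0227), without long-term replicate 4 (0.0312) and after normexp background correction (0.0472). On the shared chip alone the difference was -1.02 (adjusted p = 0.516).

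A bright member, ILMN_1235657, also singled out after its values were seen, lay lower at 14 d and near the threshold. It stood at 13.24, 13.34, 13.14 and 13.26 in the long-term livers, at 12.22, 12.00, 12.28 and 12.08 in the livers of 14 d, and at 12.54, 12.68 and 12.41 in the vehicle livers. The 3 groups did not overlap. The difference of -0.40 ± 0.10 (SE) between 14 d and vehicle did not pass (limma adjusted p = 0.0527). It passed without quantile normalization (0.0430), with centring on the median (0.0390), over the brighter probes alone (0.0446), without 14 d replicate 3 (0.0497) and without vehicle replicate 3 (0.0358), and the adjusted p reached 0.558 on the shared chip.

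Vehicle levels of the members covered most of the range of the array, down to levels not shown to be above background. Their vehicle means ran from 6.74, close to the lower quartile of all measured levels, to 13.17 with a median of 8.28, and their long-term means from 7.58 to 14.12 with a median of 9.77. The upper quartile of all measured levels was 7.61. In 16 members the vehicle mean was under this level, where 74.9% of all probes were, and in 10 members all 7 arrays of 14 d and vehicle were under it. In 39 the vehicle mean lay from there to under 10, and in 16 it was 10 or above, where 6.55% of all probes were. Background left in the intensities makes differences of dim probes smaller than they would be without it. After a normexp background correction the median difference of the members was 1.41 from vehicle and 1.18 from 14 d, and for ILMN_1214531 the differences were 4.36 and 3.57.

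The rule was also applied without each array in turn, with the normalization kept over all 11 arrays. The left-out array took no part in the choice, but the arrays it was set against did, so the share over all probes given beside each count is not the share that would be found without a rise. When the rule was applied without long-term replicate 1, 70 probes were chosen, and in 69 of these the left-out liver lay above all 7 livers of the other groups, where 13.9% of all probes did. For long-term replicate 2 this held in 68 of 70 probes, with 13.3% over all probes. For long-term replicate 4 it held in 68 of 83 probes, with 13.6% over all probes. For long-term replicate 3 it held in 75 of 110 probes, with 13.3% over all probes. Replicate 3 was thus above all other groups in a smaller part of the probes chosen from its group, 68.2% against 98.6%, 97.1% and 81.9% for replicates 1, 2 and 4.

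The left-out liver exceeded the higher of the 14 d and vehicle means by a median of 1.18, 1.00, 0.65 and 0.87 on the log2 scale for long-term replicates 1 to 4. The livers used for the choice exceeded it by 0.97, 1.06, 1.02 and 1.03. Among livers of 14 d, a left-out array lay below all 4 long-term arrays in 91.8%, 95.9%, 91.4% and 98.4% of the probes chosen without replicates 1, 2, 3 and 4. Among vehicle livers the shares were 98.6%, 89.9% and 97.1% for replicates 1 to 3. Here the long-term arrays had been chosen for being high, so large shares follow in part from the choice.

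**Figure D4:**
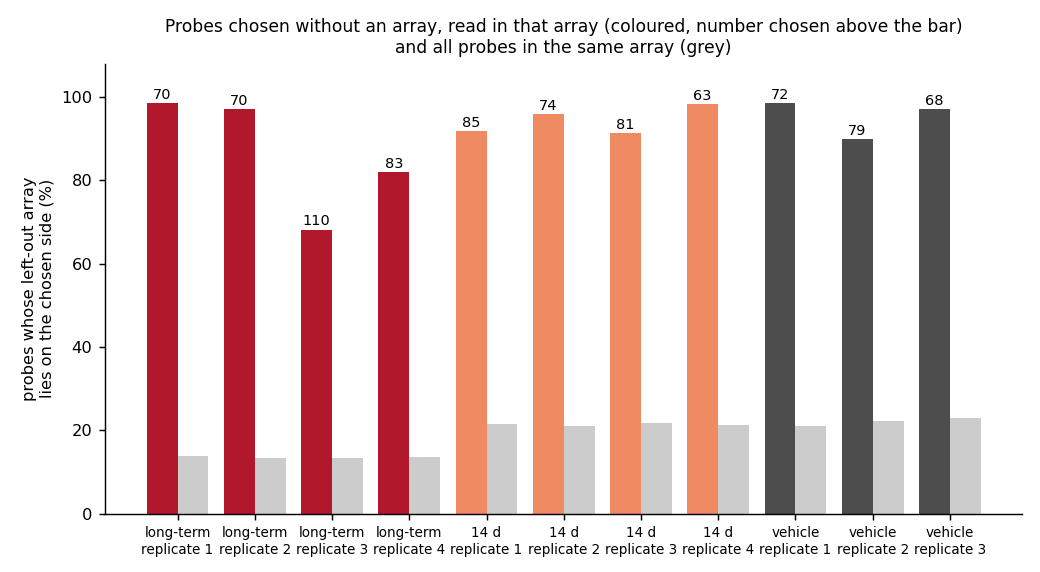
For each array, the percentage of probes chosen by the rule without that array in which the array lies on the chosen side (above all 7 others for a long-term array, below all long-term arrays for the rest), in colour with the number chosen above the bar, and the same percentage over all 26512 probes in grey. Long-term replicate 3 has the lowest coloured bar, at 68.2%. The other arrays took part in the choice, so a grey bar is not the level without a rise.

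The 110 probes chosen without long-term replicate 3 held 68 of the members and 42 other probes. In 35 of these 42 probes replicate 3 did not lie above all livers of the other groups. These 35 probes were picked as high in the other 3 long-term livers and not above all others in replicate 3. A gap between them therefore follows from the choice. In these 35 probes the other 3 long-term livers exceeded vehicle by a median of 1.44, whereas replicate 3 did so by a median of 0.33. Replicate 3 was below the vehicle mean in 10 of the 35 and below every liver of the other groups in 3. Whether anything sets this liver apart was not tested.

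Within the long-term group the members did not keep a single order of livers. Replicate 1 was the highest of the 4 in 25 members, replicate 3 in 19, replicate 4 in 14 and replicate 2 in 13. The lowest was replicate 3 in 32 members, replicate 4 in 23, replicate 2 in 13 and replicate 1 in 3. Replicate 3 was thus the lowest in 45.1% of the members, against 27.4% of the brighter probes, and replicate 1 in 4.23% against 26.7%. Among vehicle livers replicate 2 was the highest in 60.6% of the members, against 36.4% of the brighter probes. The median SD over the members was 0.30 in long-term, 0.24 in 14 d and 0.20 in vehicle livers, against 0.10, 0.11 and 0.10 over the brighter probes. The brighter probes were not matched to the members in level, with a median vehicle level of 7.61 against 8.28. How far level accounts for the wider spread was not tested. The lowest and highest SD of members among long-term livers were 0.04 and 0.79.

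Deviations from the group means describe how the members varied from liver to liver within groups. Over the 2485 pairs of members the correlation of these deviations across the 11 arrays had a mean of 0.143, against 0.000307 over all pairs of the brighter probes, and ran from -0.865 to 0.977. It was below 0 in 855 pairs. The arrays share chips and a normalization, group means were removed from only 11 points, and the brighter probes were not matched in level. The normalization also keeps the mean over so large a set of probes near 0, whatever links its probes have. These values are therefore a description. Average-linkage clustering cut at a correlation of 0.5 gave 16 sets, 2 of them of a single member. Such clustering returns sets for any probes, and whether these are tighter than sets of other probes was not tested.

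The largest set held 15 members, among them ILMN_1225565 and ILMN_2647594, with a median vehicle level of 10.56. On average over its members vehicle replicate 2 lay 0.43 above and vehicle replicate 3 lay 0.44 below the vehicle mean, and 14 d replicate 4 lay 0.29 below the 14 d mean. The next set held 10 mostly dim members, with a median vehicle level of 7.32, in which long-term replicate 1 lay 0.36 above and replicate 3 lay 0.39 below the long-term mean. A set of 7 members, ILMN_1221503 and ILMN_3065652 among them, was marked by long-term replicate 4, at 0.55 above the long-term mean, and by replicate 3, at 0.52 below it. A set of 6 members held ILMN_1214531 and ILMN_1258500. In it 14 d replicate 1 lay 0.66 above and 14 d replicate 4 lay 0.60 below the 14 d mean, and vehicle replicate 1 lay 0.43 above the vehicle mean.

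The closest pair, ILMN_2734598 and ILMN_1229267, had a correlation of deviations of 0.977. ILMN_2734598 stood at 11.93, 11.64, 11.98 and 11.21 in long-term livers, at 10.66, 10.39, 9.77 and 10.76 at 14 d, and at 10.91, 10.71 and 10.28 with vehicle. In both probes 14 d replicate 3 was the lowest of all livers. ILMN_1229267 averaged 11.70 ± 0.33 in long-term livers, 10.53 ± 0.51 at 14 d (SD, n = 4 each) and 10.71 ± 0.33 with vehicle (SD, n = 3). Taken from the vehicle mean of each probe, their values never differed by more than 0.15 on any array. Both were about 2-fold over vehicle in long-term livers, by 1.06 and 0.99 on the log2 scale. Whether both read the same transcript was not tested. In all, 20 pairs of members had a correlation of deviations above 0.9.

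**Figure D5:**
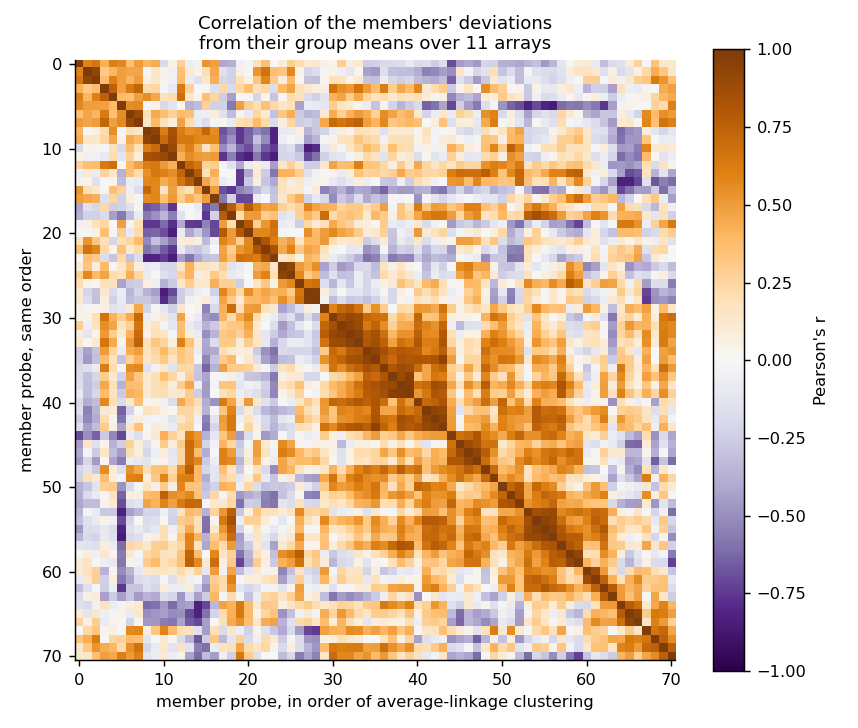
Pearson's r between members of their deviations from the group means over 11 arrays, with members in the order of average-linkage clustering on both axes. Brown blocks along the diagonal are the sets formed by the clustering, the largest with 15 members, and purple areas are pairs with r below 0 (855 of 2485 pairs).

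The same rule turned to other groups found fewer probes. All 4 long-term arrays were the lowest, by the same size, in 18 probes. All 4 arrays of 14 d were the highest in 9 probes and the lowest in 6. The long-term rise thus had more probes, 76 before any were left out, than any of these mirrored choices, and this count was not tested. These counts are not like for like. The lowest deposited intensity was 74.1 and the median of all levels 6.85, so dim probes had less room to fall than to rise. The 14 d arrays were also spread over both chips, whereas the long-term arrays shared a chip.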

How the data were processed

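Whole-liver total RNA of 11 samples was measured on 1-colour bead arrays. The authors deposited a processed intensity for each probe on each array. How they corrected the background and normalized is not stated in the labels. The lowest deposited intensity was 74.1, so background signal remains in the values. Ranked intensities of the arrays lay near a common curve, with a median deviation of 0.419%.

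An offset of 16 was added, log2 taken and quantile normalization applied. No filter on low values was used, so all 71 members entered every fit. The comparisons used limma 3.58.1 under R 4.3.3 (lmFit on 11 arrays in 3 groups, eBayes with an intensity trend), two-sided, with Benjamini-Hochberg adjustment over 26512 probes and a threshold of 0.05. The fit and the rule were run on simulated data with independent noise in each probe and no chip effect. That run therefore does not bear on the chip or on links between probes. Figures used matplotlib 3.10.9 in Python 3.11.15.

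The members and all lists were chosen with earlier results of these data known. The plan also held 39 gene lists, promoter motifs and other probes of the same genes. Because no table pairing probes with genes was used here, these were not analysed. The naming rule took the first 2 members by the smaller difference, and other identifiers are of probes singled out after their values were seen. Alternatives were other offsets, scalings, size limits, background correction, brighter probes, no trend, the chip as a term, a random block or a restriction, a replicate block, and each array left out in turn.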

Additional observations from a re-analysis of the deposited data

Results flagged for a closer look

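Among 22 sets of values from groups of 4 arrays, which were the mean over the members and the probes named in the text in each treated group, 1 had an array past Dixon's 95% critical value, with a gap of 0.953 of the group's range. ILMN_1225565 stood at 11.80 in long-term replicate 2, below the 12.05 to 12.06 of the other 3 long-term livers, a gap that is small beside its distance from the other groups. Over all members 12 of 142 such sets passed, 6 among long-term and 6 among 14 d livers. Chance passes about 1 in 20 among independent sets that were not selected. The members share their arrays and were chosen by extreme values in them, so their count cannot be set against that rate.

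The effects of long-term and of 14 d treatment are both measured from the same vehicle arrays. Tested directly against each other, they differed in 378 probes (limma, adjusted p under 0.05). Of the members, 67 were among them, as the rule that chose the members would bring about.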

How the results depend on the processing

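The number of members was 117 with a size limit of 0.5, 37 with a limit of 1 and 136 on the shared chip alone, where the single 14 d array leaves fewer arrays to lie below; 67 of the 71 members were among the 136. Leaving out single arrays gave 63 to 110, the highest without long-term replicate 3. The other 6 settings kept it within 1.5 times. Among these, the restriction to the brighter probes could not change it, because all 71 members are brighter probes. The count between 14 d and vehicle was 309, and it was 187 without an intensity trend, 6 with the chip as a term and 2 on the shared chip. Single arrays left out gave 200 (without vehicle replicate 1) to 423. Between long-term and vehicle the range was 480 (without vehicle replicate 1) to 847, with 494 without vehicle replicate 3. Between long-term and 14 d, 96 passed with the chip as a term and 75 on the shared chip, and the range was 194 (without long-term replicate 1) to 473, with 228 without long-term replicate 2 and 249 without 14 d replicate 3. Of the members, 3 passed at 14 d, all higher, and under the settings named in the text 1 lower member passed as well, ILMN_1221503 or ILMN_1235657. None did (limma) without a trend, with the chip as a term or on the shared chip. Without a trend 17 members had an unadjusted p under 0.05, where 2717 of all probes did. With the chip as a term 7 members did, where 1554 of all probes did. The range over left-out arrays was 0 (without vehicle replicate 1) to 5 (without long-term replicate 4 or vehicle replicate 2), with 1 without 14 d replicate 2. The replicate number as a block gave 5. The numbers were not taken to pair the samples: deviations of same-numbered arrays correlated at -0.100 to 0.119 over 10 pairs, and 1 of 11 arrays correlated best with its own number. With the 4 left-out long-term arrays pooled, the left-out array lay above all other groups in 280 of 333 chosen probes, 84.1%. A probe can count more than once in this. The share was 82.5% to 84.4% under 5 scalings chosen after seeing the data. Over all probes it was 13.3% to 13.9% for single arrays, which is not the share without a rise. For ILMN_1214531 and ILMN_1258500 no setting turned a difference round, and against 14 d on the shared chip they were 4.04 and 2.72. The causes of these changes were not tested. On the shared chip the smaller number of 14 d arrays, the chip and the sample cannot be told apart. Signal close to background limits what dim members can show.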

Other observations

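The 5 probes with the highest correlation with the mean of the members over the 11 arrays, members aside, were the same 5 that the rule leaves out. Their Pearson's r was 0.961 to 0.976, and they rose by 1.60 to 4.15 over vehicle and by 1.44 to 3.73 over 14 d on the log2 scale. The members themselves correlated with their mean at 0.685 to 0.985, with a median of 0.918. The difference between groups sets most of these values, and they were not tested.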
